A study of Mus musculus with 8 samples.

Results

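Glutathione and antioxidant enzymes were followed in the ventral prostate of mice, as 47 genes of the 12393 that the arrays measured under 1 gene name. They are 17 of 18 genes listed by name (Ggt1, a glutathione-degrading enzyme, was named by no probe set used here) and 30 genes whose symbols start with Gsta, Gstm, Gstp, Gstt, Gsto, Mgst, Gpx or Prdx. Each gene was read from the single-symbol probe set with the highest mean over the 8 arrays. The 4 wild type samples are normal ventral prostate and the 4 transgenic samples are ventral prostate with mouse prostatic intraepithelial neoplasia (mPIN), a lesion of the gland epithelium. All samples are from FVB mice aged 20 weeks. Per the series design the transgenic mice overexpress an active form of p110 beta, one of the catalytic subunits of PI3-kinase. The labels name no promoter for the transgene and do not say whether an array holds 1 animal or several. The p-values therefore cover only the spread among these 8 arrays, and that spread may be technical. No probe set used here is named for Pik3cb, the gene of p110 beta, so the transgene itself does not check the labels.

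Glutathione is a small thiol peptide made by the glutamate cysteine ligase subunits Gclc and Gclm and then Gss, and kept reduced by Gsr. Glutathione transferases join it to reactive compounds, glutathione peroxidases use it to reduce peroxides, and peroxiredoxins do the same with thioredoxin. Many of these genes are induced by the transcription factor NRF2, encoded by Nfe2l2, which KEAP1 holds low in unstressed cells. In the human prostate, loss of the transferase GSTP1 by promoter methylation is a well known feature of cancer.

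A few members of these families differed between transgenic and wild type prostates, and none of the enzymes that make glutathione passed the test. Transgenic samples had higher levels of the glutathione transferase genes Gstm5 (5.51-fold), Gsto1 (2.50-fold) and Gstm7 (2.11-fold), of the mitochondrial superoxide dismutase gene Sod2 (1.74-fold), of the sulfiredoxin gene Srxn1 (1.58-fold) and of the peroxiredoxin gene Prdx2 (1.51-fold). The plasma glutathione peroxidase gene Gpx3 fell by 1.56 on the log2 scale, Nfe2l2 by 0.43 and Prdx4, a peroxiredoxin of the endoplasmic reticulum, by 0.40. Together 6 of 47 members rose (12.8%, against 5.99% of all genes), 3 fell (6.38%, against 4.98% of all genes) and 38 did not pass an adjusted p of 0.05 in limma. The share called in either direction was 19.1%, against 11.0% of all genes. The share that fell is near that of all genes, and the difference from other genes was not tested. The groups did not overlap for 11 members (23.4%, against 16.3% of all genes): all the called members but Sod2, and Gpx1, Gpx4 and Gstp1.

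**Figure D1:**
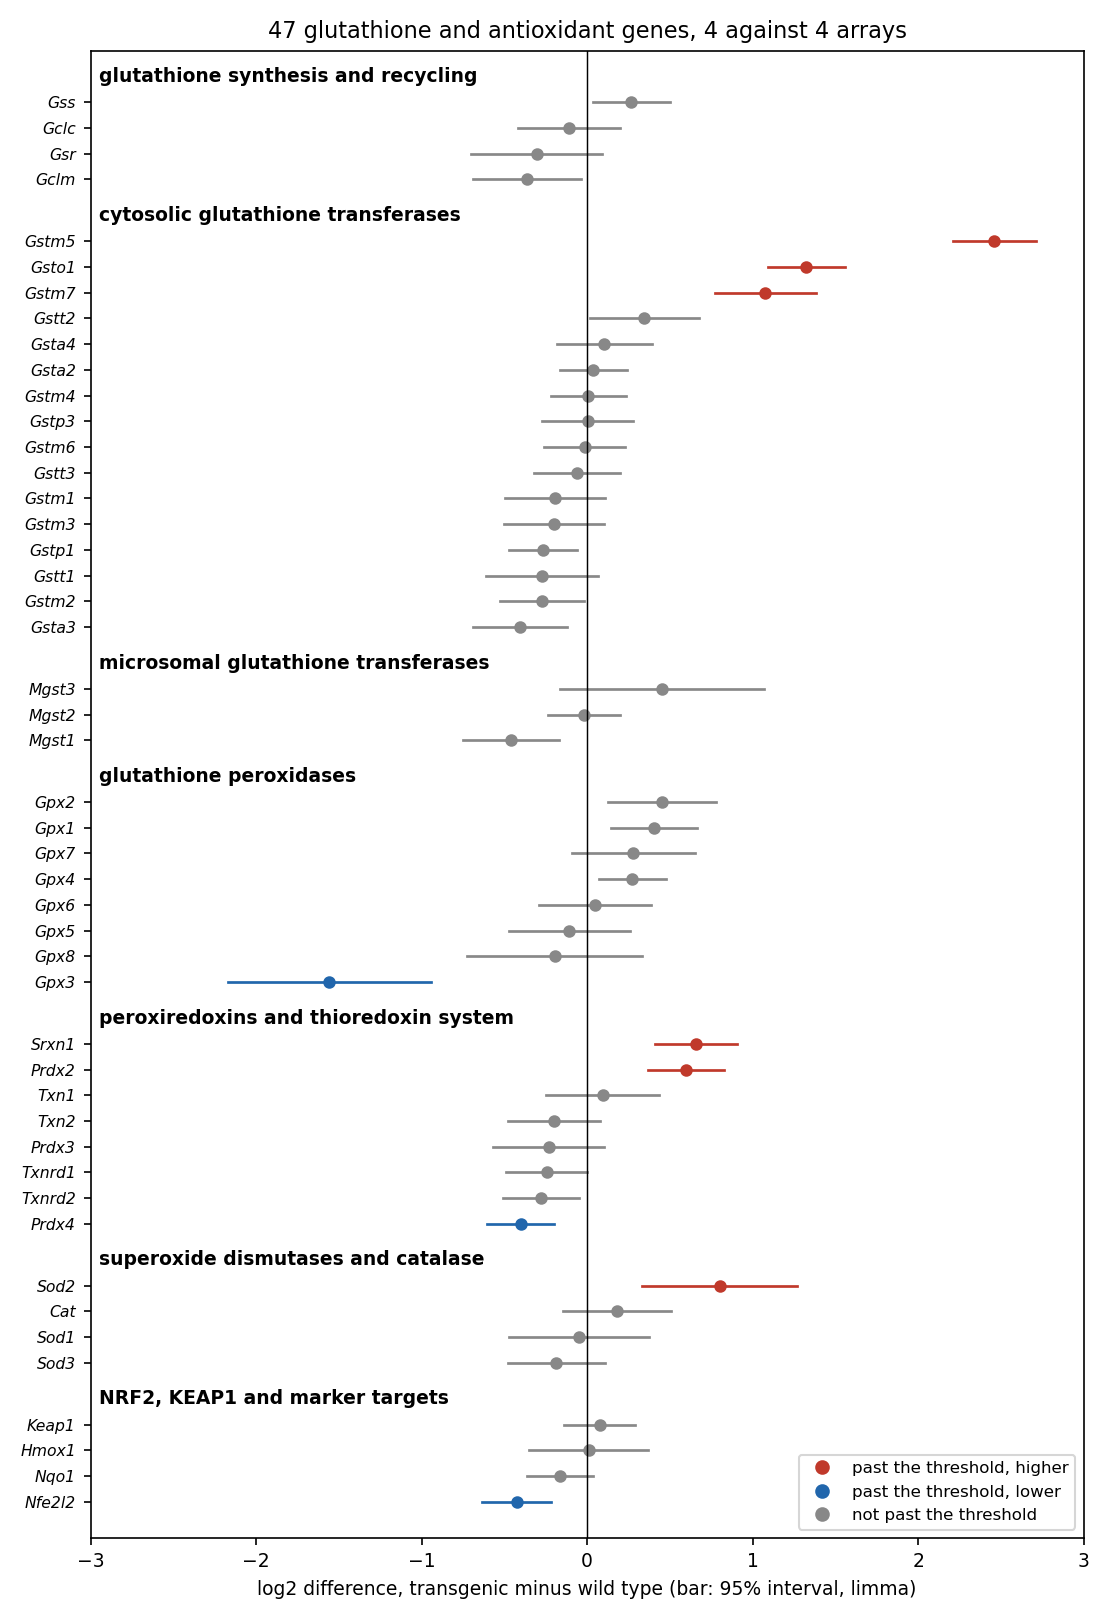
The log2 difference between transgenic and wild type samples for each of the 47 members, grouped by role, with its 95% interval from the limma fit (horizontal axis, log2 scale; 4 arrays in each group). The 6 members past the threshold on the right reach from 0.60 for Prdx2 to 2.46 for Gstm5, the 3 on the left from -1.56 for Gpx3 to -0.40 for Prdx4, and the other 38 lie between -0.46 and 0.45.

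The members moved in both directions. The median log2 difference of the members was -0.02, beside -0.04 over all genes, with 22 members above 0 and 25 below. The count of members that fell depended on single arrays: it was 1 without transgenic array 3, 7 without transgenic array 1 and 5 without wild type array 1, while the count that rose stayed at 5 or 6. Among all genes, leaving out 1 array gave between 494 and 821 higher genes and between 359 and 693 lower ones, beside 742 and 617. The lowest counts were without transgenic array 2, and without wild type array 3, transgenic array 3 or transgenic array 4 the lower genes numbered 397, 378 and 379. In 10 members both group means lay below the median of every array (5.40 to 5.51 on the log2 scale), where background can set the value and a change can be missed.

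Markers of some cell types and of the tissue moved with the groups, and their part in the changes below was not tested beyond the values given here. Beside the counts that follow, 5.99% of all genes rose and 4.98% fell. Of 5 measured secretion genes of the ventral prostate, all above the median of the arrays, 3 fell and 0 rose, and their score lay between 0.16 and 0.87 in wild type and between -0.83 and -0.09 in transgenic arrays. All 6 seminal vesicle markers lay below every array median in both groups. The endothelial, neutrophil, lymphocyte, mast cell and adipocyte lists held 0 called genes. Of 10 macrophage, 6 nerve and 4 erythroid markers 1 each rose and 0 fell. Of 11 luminal epithelial markers 7 rose and 0 fell, and the mean of their centred log2 values lay between -0.39 and -0.20 in wild type and between 0.24 and 0.32 in transgenic arrays. Of 10 basal epithelial markers 5 fell and 0 rose, with scores between 0.15 and 0.30 in wild type and between -0.33 and -0.16 in transgenic arrays. Of 10 smooth muscle and 11 fibroblast markers 1 and 2 fell and 0 rose. Their joint stromal score was between -0.22 and 0.82 in wild type and between -0.41 and -0.16 in transgenic arrays, a difference of -0.50 (exact permutation p = 0.0857, two-sided, or 0.171 adjusted over 16 array measures). As a measure of RNA quality, the log2 excess of 3 prime over 5 prime signal in the control probe sets for beta actin and Gapdh averaged 1.47 ± 0.09 over wild type and 1.12 ± 0.19 over transgenic arrays (n = 4 each, with the SD; two-sided exact permutation p = 0.0571, and 0.171 after adjustment). In bulk tissue, fewer cells of a type and less RNA per cell cannot be told apart.

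With the stromal score as a covariate in the fit, Gstm5, Gsto1, Gstm7 and Srxn1 kept their calls, with log2 differences of 2.47, 1.37, 1.02 and 0.76. Prdx2, Sod2, Gpx3, Prdx4 and Nfe2l2 lost theirs. Their log2 differences were then 0.46 (adjusted p = 0.0899), 0.83 (adjusted p = 0.193), -1.54 (adjusted p = 0.0553), -0.48 (adjusted p = 0.0623) and -0.46 (adjusted p = 0.0936) in limma. For Gpx3, Sod2, Prdx4 and Nfe2l2 the difference was within 0.1 of its size without the score, and the standard error grew, for Gpx3 from 0.28 to 0.40. For Prdx2 the difference itself was smaller than the 0.60 found without the score. The luminal, basal, secretion and erythroid (red blood cell) scores, whose groups did not overlap, were not used as covariates, so their part was not tested. Each had a two-sided exact permutation p of 0.0286, or 0.114 adjusted over the array measures.

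Nfe2l2 encodes NRF2, the transcription factor that induces many of the other members. In this and the following paragraphs array values are log2 RMA values, given in the order of array 1 to 4. Nfe2l2 was at 8.43, 8.35, 8.26 and 8.26 in wild type and at 7.93, 8.001, 7.75 and 7.92 in transgenic arrays. All 4 transgenic values lay below all 4 wild type values, with group means of 8.32 ± 0.08 and 7.90 ± 0.11 (SD, n = 4 each). The limma log2 difference was -0.43 ± 0.10 (SE; adjusted p = 0.0159), and without transgenic array 3 it was -0.38 and missed the threshold (adjusted p = 0.0578).

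Keap1 encodes the adaptor that sends NRF2 for degradation. Its values were 8.16, 8.23, 8.09 and 8.08 in wild type and 8.14, 8.40, 8.15 and 8.17 in transgenic arrays, and the groups overlapped. The log2 difference was 0.08 (95% interval -0.14 to 0.29), and a second Keap1 probe set, below every array median, gave 0.10. KEAP1 acts on the NRF2 protein, which these arrays do not measure.

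Nqo1 and Hmox1, a quinone reductase and heme oxygenase 1, are the genes most often read as signs of NRF2 activity. Nqo1 was at 4.10, 4.18, 4.16 and 4.20 in wild type and at 4.10, 4.02, 3.86 and 4.00 in transgenic arrays. Hmox1 was at 4.36, 4.70, 4.80 and 5.16 against 4.94, 4.62, 4.56 and 4.94. Both genes lay below the median of every array in both groups, so these probe sets could miss a change. Their log2 differences were -0.16 (95% interval -0.37 to 0.04) and 0.01 (95% interval -0.35 to 0.37), and neither passed (adjusted p = 0.354 and 0.987 in limma).

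NRF2 binds the antioxidant response element, and its core was looked for in the promoters of the members as letters only. The windows were the 300 bases from 250 before to 50 after each annotated start in the RefSeq promoter table of GRCm38.p6, and the motif was TGACNNNGC on either strand. Of the 47 members 41 had an entry, and 9 of these (22%) held the motif in at least 1 window, beside 14% of all 27025 genes in the table, a description with no test. No match held TGACTCA, the site of AP-1 factors. Of the members that passed the threshold 4 of 9 held it: 3 that rose, Gstm5, Gstm7 and Srxn1, and 1 that fell, Nfe2l2. Of the 32 others 5 did: Gclm, Gsta3, Mgst1, Sod1 and Txnrd1. A match of these letters does not show that NRF2 binds there, and windows without one, such as those of Gsto1 and Nqo1, say nothing of sites elsewhere.

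The matches in the 4 genes past the threshold are shown so that the motif can be seen beside the changes described here, from 5′ to 3′ on the strand of the gene, with the matched bases in capitals. Positions count the first base of the match from the annotated start, negative before it. The Gstm5 stretch is chr3:107895782-107895850 on the plus strand, with the match at -42. The Gstm7 stretch is chr3:107931705-107931773 on the minus strand, with the match at -129 from 1 of its 2 annotated starts. The Nfe2l2 stretch is chr2:75704865-75704913 on the minus strand, with the match at -240. The Srxn1 stretch is chr2:152105542-152105570 on the plus strand, with the match at 29, after the start and read on the other strand, so that its capitals are the reverse complement of the motif.
Gstm5: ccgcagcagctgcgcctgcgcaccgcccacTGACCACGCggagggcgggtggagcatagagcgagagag
Gstm7: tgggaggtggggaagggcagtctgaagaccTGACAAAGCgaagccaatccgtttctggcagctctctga
Nfe2l2: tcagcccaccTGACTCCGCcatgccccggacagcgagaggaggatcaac
Srxn1: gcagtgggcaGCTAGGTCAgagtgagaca

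Glutathione synthesis and recycling showed no call among 4 measured genes. Gclc, the catalytic subunit of glutamate cysteine ligase, was at 8.28, 7.96, 7.87 and 7.60 in wild type and at 7.68, 7.98, 7.88 and 7.74 in transgenic arrays. The groups overlapped, with a log2 difference of -0.11 (95% interval -0.42 to 0.20). Gclm, the modifier subunit and a known NRF2 target, was at 9.15, 9.28, 9.62 and 9.58 against 9.38, 8.87, 8.83 and 9.10. Its log2 difference of -0.37 (95% interval -0.69 to -0.04) did not pass over all probe sets (adjusted p = 0.175 in limma). Gss, which completes the tripeptide, was at 6.25, 6.10, 6.32 and 6.08 against 6.26, 6.60, 6.44 and 6.53. Gsr, which reduces oxidised glutathione, was at 8.59, 9.06, 8.83 and 8.39 against 8.82, 8.31, 8.03 and 8.47. For Gss and Gsr the log2 differences were 0.27 (adjusted p = 0.165) and -0.31 (adjusted p = 0.391) in limma, with overlapping groups, and a second Gsr probe set gave -0.26. Of the 4 genes 2 had an unadjusted p under 0.05, Gclm in the lower and Gss in the higher direction. Gclm passed in 1 alternative, with array weights (adjusted p = 0.0244).

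The 3 largest rises among the members were in cytosolic glutathione transferases. Of 16 measured genes of the alpha, mu, pi, theta and omega classes 3 rose, 0 fell and 13 did not pass in limma. Both means lay below every array median in 4 of these 13. The zeta-class gene Gstz1, which is not a member and is given with the wider lists below, fell by 0.97. The median log2 difference of the 16 was -0.01. At an unadjusted p under 0.05 the count of the 16 was 7, with Gstm5, Gstm7, Gsto1 and Gstt2 higher and Gsta3, Gstm2 and Gstp1 lower. The share of all genes at that p is not given here. Counts at an unadjusted p, here and in other paragraphs, are therefore not a result about the members.

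Gstm5, a mu-class transferase, was at 8.16, 8.22, 8.56 and 8.19 in wild type and at 10.86, 10.81, 10.70 and 10.61 in transgenic arrays. The lowest transgenic value was over 2 log2 units above the highest wild type value. The group means were 8.28 ± 0.18 and 10.74 ± 0.11 (SD, n = 4 each), a log2 difference of 2.46 ± 0.11 (SE; adjusted p = 2.81e-07 in limma). It ranked 33 of 12393 genes by size of rise and lay between 2.42 and 2.55 when any 1 array was left out.

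Gstm7, of the same class, was at 6.30, 6.29, 6.78 and 6.61 in wild type and at 7.78, 7.46, 7.38 and 7.67 in transgenic arrays, with no overlap. Its log2 difference was 1.08 ± 0.14 (SE; adjusted p = 0.000445 in limma). The second Gstm7 probe set, whose means lay below every array median, gave -0.13 and did not pass. With the mean of both probe sets the log2 difference was 0.47 and the call was lost (adjusted p = 0.0627).

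The mu-class genes lie side by side on chromosome 3, and the 2 that rose are neighbours there. In the annotation the 7 genes are consecutive protein-coding genes in the order Gstm5, Gstm7, Gstm6, Gstm3, Gstm2, Gstm1 and Gstm4. The first 2 in that order rose, by 2.46 and 1.08 on the log2 scale, and the next 5 lay between -0.27 and 0.01 with no call. Gstm2, at 9.31, 9.14, 9.13 and 9.08 in wild type and at 9.19, 8.82, 8.79 and 8.78 in transgenic arrays, had a log2 difference of -0.27, and without transgenic array 1 it was -0.37 and passed (adjusted p = 0.0433 in limma). The 4 Gstm1 probe sets gave between -0.26 and 0.09, none past the threshold. Mu-class genes are close in sequence, and the Gstm1 and Gstm3 probe sets used are marked as able to bind other transcripts, so their values may mix family members.

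**Figure D2:**
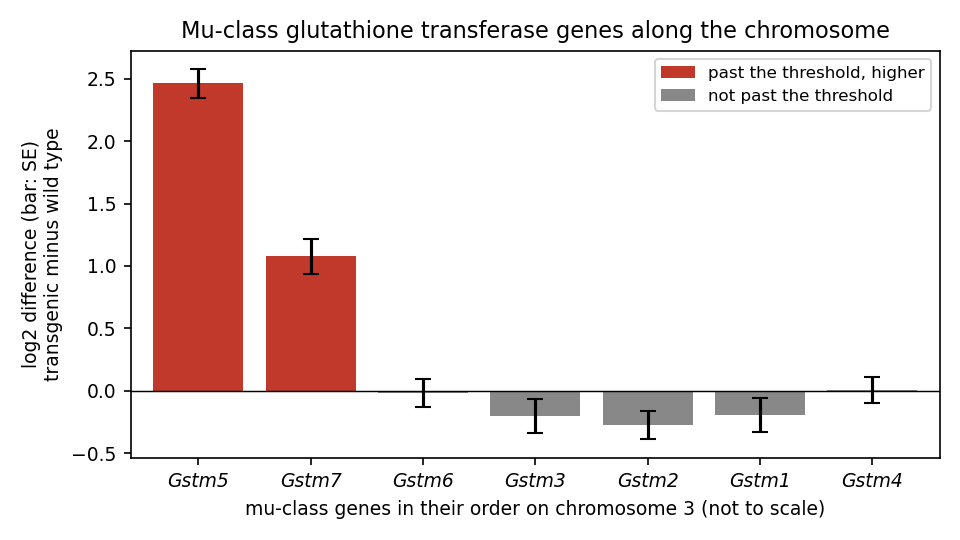
The log2 difference between transgenic and wild type samples (vertical axis, bars from 0, error bars SE of the limma fit, 4 arrays in each group) for the 7 mu-class transferase genes in their order on chromosome 3. Gstm5 at 2.46 and Gstm7 at 1.08 are neighbours at 1 end of the row, and the other 5 lie between -0.27 and 0.01.

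Gsto1, an omega-class transferase that can reduce arsenic compounds, was at 8.06, 8.15, 8.20 and 8.28 in wild type and at 9.32, 9.61, 9.64 and 9.42 in transgenic arrays. The groups were apart by more than 1 log2 unit at their nearest values, and the log2 difference was 1.32 ± 0.11 (SE; adjusted p = 1.48e-05 in limma). Both Gsto1 probe sets passed, and the second gave 1.89. Gsto2, its neighbour on chromosome 19, was named by no probe set used here.

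The pi-class gene Gstp1, which is silenced in most human prostate cancers, did not pass. It was at 10.40, 10.21, 10.33 and 10.19 in wild type and at 10.04, 9.97, 10.10 and 9.94 in transgenic arrays. The groups did not overlap, but the log2 difference was only -0.27 (95% interval -0.47 to -0.06; adjusted p = 0.109 in limma). With quantile or cyclic loess normalization it was -0.36 (adjusted p = 0.0230) and -0.31 (adjusted p = 0.0435) and passed. The related gene Gstp3 lay below every array median in both groups, with a log2 difference of 0.00.

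The alpha and theta classes gave no call. Gsta4, which clears products of lipid peroxidation, averaged 8.69 ± 0.14 over wild type and 8.79 ± 0.24 over transgenic arrays (SD, n = 4 each), and Gsta2 and Gsta3 were below every array median. Gsta3, at -0.41, passed under 4 of 17 alternatives in limma. These were leaving out transgenic array 1 (adjusted p = 0.0234) or wild type array 1 (adjusted p = 0.0374), array weights and the mean of its probe sets. The theta-class genes Gstt1, Gstt2 and Gstt3 had log2 differences of -0.27, 0.35 and -0.06.

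The microsomal transferases, which are membrane proteins, had 0 calls among 3 genes in limma, with 1 at an unadjusted p under 0.05. Mgst1 was at 12.21, 12.45, 12.34 and 12.31 in wild type and at 12.26, 11.71, 11.74 and 11.76 in transgenic arrays. Transgenic array 1 lay within the wild type range and the other 3 below it. The log2 difference of -0.46 just missed the threshold (adjusted p = 0.0504), and without transgenic array 1 it was -0.59 (adjusted p = 0.00419). Without wild type array 1 it was -0.50 and passed as well (adjusted p = 0.0468). Mgst1 passed under 6 of 19 alternatives, with adjusted p from 0.00419 to 0.606 over them. A second Mgst1 probe set, below every array median, gave -0.18 and did not pass (adjusted p = 0.606). Mgst3 had a log2 difference of 0.45 with a wide interval, from -0.17 to 1.07, and Mgst2 lay below every array median.

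Glutathione peroxidases reduce peroxides with glutathione, and several carry selenocysteine at the active site. Of 8 measured genes 0 rose, 1 fell and 7 did not pass. Gpx3, the secreted form found in plasma, was at 12.71, 13.06, 12.83 and 12.59 in wild type and at 12.23, 10.86, 10.63 and 11.24 in transgenic arrays. The transgenic values were all lower, and array 1 was nearest to wild type. The group means were 12.80 ± 0.20 and 11.24 ± 0.70 (SD, n = 4 each), with a log2 difference of -1.56 ± 0.28 (SE; adjusted p = 0.00428 in limma), a level 2.94-fold higher in wild type. Leaving out any 1 array gave from -1.89 to -1.36, the first without transgenic array 1, and Gpx3 ranked 25 of 12393 genes by size of fall.

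Gpx1 and Gpx4, the peroxidases of the cytosol and of membrane lipids, were slightly higher without passing. Gpx1 was at 10.40, 10.22, 10.54 and 10.66 in wild type and at 11.04, 10.77, 10.89 and 10.74 in transgenic arrays. Gpx4 was at 9.62, 9.61, 9.58 and 9.56 against 10.02, 9.88, 9.77 and 9.79. Neither gene's groups overlapped, and the log2 differences were 0.40 (adjusted p = 0.0533) and 0.27 (adjusted p = 0.0976) in limma. A second Gpx4 probe set of nearly the same level passed at 0.42 (adjusted p = 0.0145). Gpx1 passed under 5 of 19 alternatives in limma. It did so without wild type array 4 (0.47, adjusted p = 0.0309) and with the dimmest 40% or 60% of probe sets left out (adjusted p = 0.0461 and 0.0387). It also passed with array weights and with probe sets averaged by gene.

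Gpx2, the peroxidase of gut-like epithelia and an NRF2 target, was at 4.70, 4.75, 5.24 and 5.13 in wild type and at 5.63, 5.13, 5.48 and 5.40 in transgenic arrays. The log2 difference of 0.45 did not pass (adjusted p = 0.0874 in limma), but it did with quantile (0.49, adjusted p = 0.0393) or cyclic loess normalization (0.50, adjusted p = 0.0331). Its wild type mean lay below every array median. Gpx5, Gpx6 and Gpx7 lay below it in both groups, and Gpx8, of the endoplasmic reticulum, had a log2 difference of -0.20.

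Among the peroxiredoxins and the thioredoxin system, 2 genes rose, 1 fell and 5 did not pass of 8 measured. The peroxiredoxin genes among them are Prdx2, Prdx3 and Prdx4, and no probe set used here was named for Prdx5 or Prdx6. Srxn1 encodes sulfiredoxin, which restores peroxiredoxins that peroxide has overoxidised. It was at 5.61, 5.87, 5.76 and 5.70 in wild type and at 6.50, 6.36, 6.56 and 6.16 in transgenic arrays, with no overlap. The log2 difference was 0.66 ± 0.11 (SE; adjusted p = 0.00307 in limma), and a second of its 4 probe sets passed at 0.69. The other two gave 0.08 and 0.09 without passing, and with the mean of all 4 the difference was 0.38 (adjusted p = 0.0138).

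Prdx2, a peroxiredoxin of the cytosol, was at 9.62, 9.35, 9.37 and 9.42 in wild type and at 10.19, 9.98, 10.07 and 9.91 in transgenic arrays. The groups did not overlap, and the log2 difference was 0.60 ± 0.10 (SE; adjusted p = 0.00346 in limma). Prdx2 is abundant in red blood cells, so their markers were read beside it. Of 4 measured erythroid markers 1 rose, Bpgm by 1.03, and Alas2, Hba-a1 and Slc4a1 had log2 differences of -0.18, -0.07 and -0.03, with Hba-a1 and Slc4a1 below the median of every array. The erythroid score, the mean over these 4 markers, lay between -0.20 and -0.05 in wild type and between 0.00 and 0.19 in transgenic arrays. Only Bpgm among them had a positive difference, so the score does not show that the markers rose as a set. A part of red blood cells in the Prdx2 difference was not tested.

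Prdx4, the peroxiredoxin of the endoplasmic reticulum that takes part in the folding of secreted proteins, was at 9.03, 8.83, 8.86 and 8.92 in wild type and at 8.45, 8.57, 8.45 and 8.56 in transgenic arrays. All transgenic values were lower, with a log2 difference of -0.40 ± 0.09 (SE; adjusted p = 0.0171 in limma). Its other two probe sets gave -0.34 and -0.13 and did not pass, and the call was lost with the mean of the 3 (-0.29, adjusted p = 0.104) and without transgenic array 3 (-0.38, adjusted p = 0.0591). Prdx3, the mitochondrial form, was at 8.26, 8.06, 8.32 and 8.15 against 8.45, 7.91, 7.70 and 7.81. Its log2 difference of -0.23 did not pass, but without transgenic array 1, the highest of the 8, it was -0.39 and did (adjusted p = 0.0470).

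Thioredoxins and their reductases, which return electrons to the peroxiredoxins, gave no call. Txn1, the cytosolic thioredoxin, was at 10.68, 10.45, 9.999 and 10.25 in wild type and at 10.24, 10.59, 10.66 and 10.27 in transgenic arrays. Txnrd1, its reductase and a known NRF2 target, was at 8.06, 7.83, 7.99 and 7.84 against 7.92, 7.65, 7.49 and 7.68. The groups overlapped for both, with log2 differences of 0.09 (95% interval -0.25 to 0.43) and -0.24 (adjusted p = 0.243 in limma). The mitochondrial pair Txn2 and Txnrd2 had log2 differences of -0.20 and -0.28.

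Superoxide dismutases turn superoxide into peroxide, which catalase breaks down. Of these 4 genes 1 rose and 3 did not pass. Sod2, the mitochondrial form and also a target of NF-kB, was at 9.40, 9.17, 8.53 and 8.63 in wild type and at 9.29, 9.95, 10.04 and 9.64 in transgenic arrays. Transgenic array 1 lay within the wild type range, so the groups overlapped. The log2 difference was 0.80 ± 0.21 (SE; adjusted p = 0.0358 in limma). The call was lost without wild type array 3 (adjusted p = 0.114) or 4 (adjusted p = 0.0895) and without transgenic array 2 (adjusted p = 0.113), 3 (adjusted p = 0.113) or 4 (adjusted p = 0.0761), at 0.67, 0.70, 0.73, 0.70 and 0.83. The other two Sod2 probe sets gave 0.56 (adjusted p = 0.0640) and 0.25 without passing.

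Sod1, Sod3 and Cat encode the cytosolic and the secreted dismutase and catalase. Sod1 was at 9.61, 9.46, 9.06 and 9.20 in wild type and at 8.77, 9.56, 9.66 and 9.15 in transgenic arrays. Cat was at 8.46, 8.14, 8.01 and 7.65 against 8.34, 8.22, 8.17 and 8.26. Sod3 was at 5.13, 5.56, 5.75 and 5.61 against 5.32, 5.19, 5.37 and 5.42. The groups overlapped in each case, with log2 differences of -0.05 (95% interval -0.47 to 0.37) for Sod1, 0.18 (95% interval -0.15 to 0.51) for Cat and -0.19 (95% interval -0.48 to 0.10) for Sod3.

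**Figure D3:**
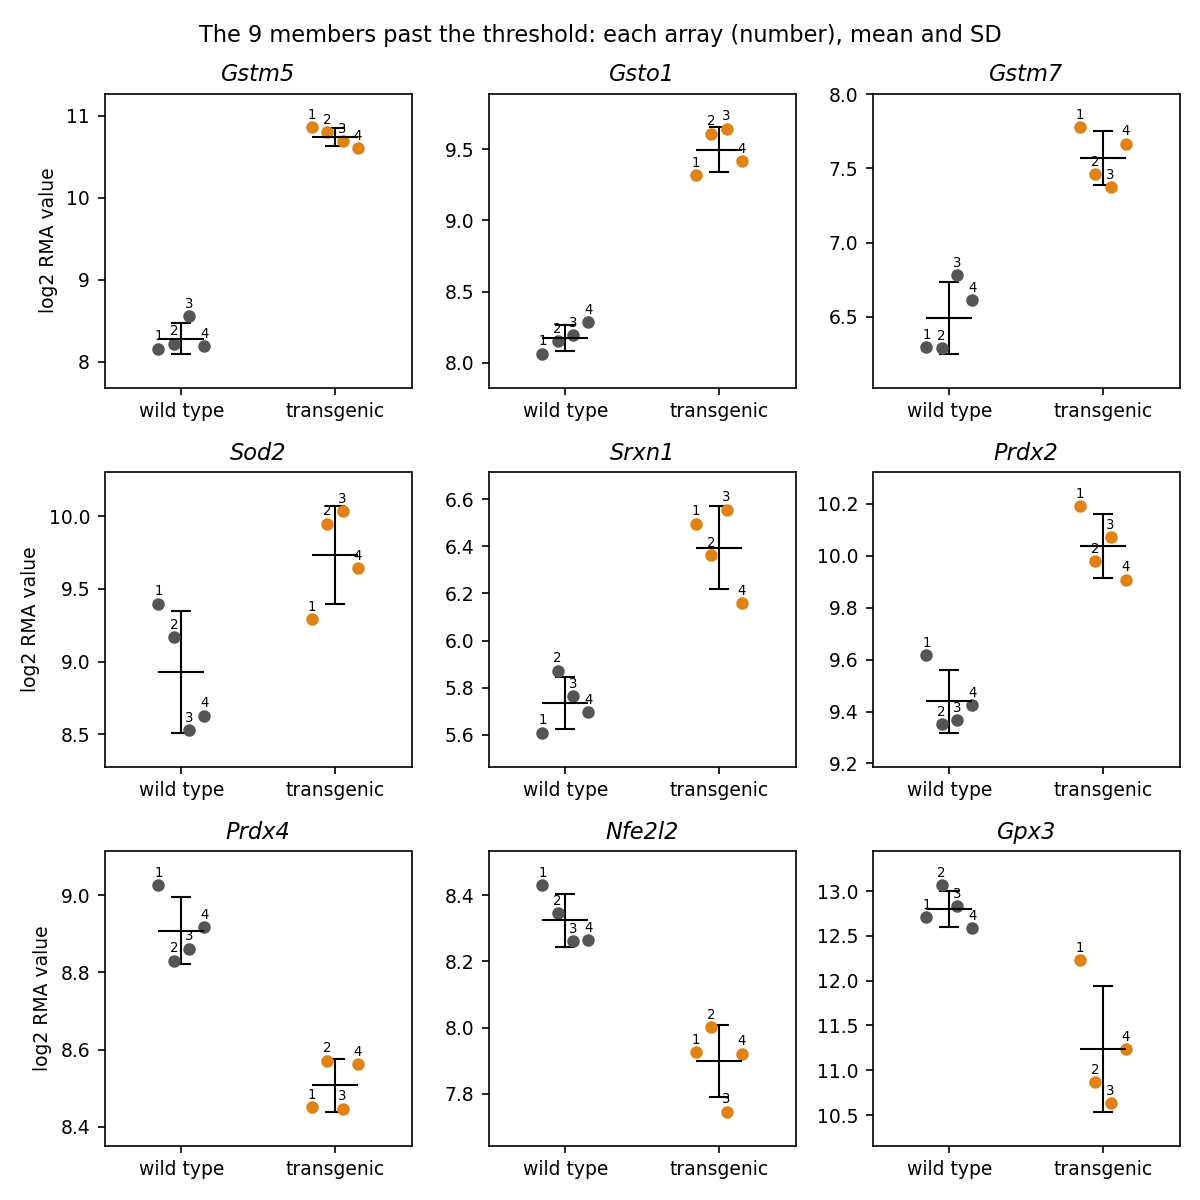
Log2 RMA values of the 9 members past the threshold in each array (points, numbered by array; vertical axis, log2 scale, not starting at 0), with the mean and SD of the 4 arrays in each group. Gstm5, Gsto1 and Gstm7 stand far apart between groups, Sod2 overlaps through transgenic array 1 at 9.29, and the transgenic values of Gpx3 spread from 10.63 to 12.23.

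The arrays did not rank alike across the called members. Transgenic array 1 was nearest to the wild type mean for 3 of the 9 (Gsto1, Gpx3 and Sod2), array 2 for 2, array 3 for 1 and array 4 for 3. No single transgenic array therefore stood closest to wild type throughout.

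Other genes of these pathways were taken from 6 lists, written with earlier results of these data known, and covered 117 further genes. Of these 23 rose (19.7%, beside 5.99% of all genes), 12 fell (10.3%, beside 4.98%) and 82 missed the threshold. The median log2 difference of the 117 was -0.03. The called genes went both ways in every list but the oxidant-producing enzymes. The same shares of all genes stand beside the counts of each list below. No list was tested against all genes, so the direction of the calls within a list is a description only.

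The oxidant-producing enzymes had 5 of 21 genes higher (beside 5.99% of all genes), 0 lower (beside 4.98%) and a median log2 difference of 0.15. Both means lay below every array median in 10 of the 21. Qsox1, a sulfhydryl oxidase that forms disulfides and releases peroxide, went from 7.005 to 9.80, a log2 difference of 2.80 (adjusted p = 2.62e-07 in limma), and 1.04 with the mean of all its probe sets. Noxo1, the organiser subunit of the NOX1 oxidase, went from 5.08, below every array median, to 7.11, a difference of 2.02. Duoxa1, a maturation factor of the dual oxidase DUOX1, rose by 1.26, and Maoa, a monoamine oxidase that releases peroxide, by 1.20. The oxidase genes Nox1 and Duox1 themselves were not among the 21 measured genes. The oxidase genes Cybb and Nox4 had log2 differences of 0.19 and -0.10 without a call, both below every array median in both groups.

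Of 25 genes of glutathione use and turnover 5 rose, 3 fell and 17 did not pass. Gstz1, a zeta-class transferase of tyrosine breakdown, fell by 0.97 and Gstk1, the kappa-class transferase of mitochondria and peroxisomes, by 0.65. Chac2, which degrades glutathione, rose by 0.89, from a wild type mean below every array median, and Clic1, a chloride channel protein with the transferase fold, by 0.75. Chac2 lost its call once the stromal score was a covariate (adjusted p = 0.0821 in limma).

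NADPH supplies the electrons for Gsr and the thioredoxin reductases. Of 13 genes of NADPH supply 3 rose, 2 fell and 8 did not pass. Idh1, the cytosolic isocitrate dehydrogenase, rose by 0.97, and the folate enzyme gene Mthfd2 fell by 1.03. Pgd and Tkt, of the pentose phosphate pathway, rose by 0.82 and 0.76. Pgd lost its call when any 1 of wild type arrays 3 and 4 and transgenic arrays 2 and 4 was left out (adjusted p up to 0.0715 in limma), and Tkt, whose groups overlapped, without those 4 or transgenic array 3 (adjusted p up to 0.118). Both lost it once the stromal score was a covariate (adjusted p = 0.147 and 0.193).

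Of 21 other genes listed here as induced by NRF2, 4 rose, 3 fell and 14 did not pass. The listing was not checked gene by gene, and it includes Txnip and Trib3, neither of which was called. The aldo-keto reductase gene Akr1b8 rose by 0.92 and the carbonyl reductase genes Cbr3 and Cbr1 by 0.91 and 0.74, while Aldh1a1, a retinal dehydrogenase, fell by 1.49. Cbr3 and Cbr1 lost their calls once the stromal score was a covariate (both adjusted p = 0.125 in limma).

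Of 13 regulators of NRF2, 2 rose, 1 fell and 10 did not pass. Fyn, a kinase reported to send NRF2 out of the nucleus, went from 5.67 to 7.08, a rise of 1.40. Sqstm1, which binds KEAP1, fell by 0.52, and Bach1, a repressor at the same DNA element, rose by 0.39. Sqstm1 lost its call without wild type array 2 or transgenic array 4 (adjusted p up to 0.0697 in limma) and Bach1 without any 1 of 6 arrays, the exceptions being array 1 of wild type and array 4 of transgenic (adjusted p up to 0.147). With the stromal score as a covariate both were lost, at adjusted p of 0.209 and 0.342.

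Of 25 other redoxins, selenoproteins and repair genes 4 rose, 3 fell and 18 did not pass. The metal-binding and radical-scavenging metallothioneins Mt2 and Mt1 fell by 2.01 and 0.79, and the paraoxonase genes Pon3 and Pon2 rose by 0.91 and 0.67. The Mt1 probe set used is marked as able to bind other transcripts, and the Mt1 probe set without that mark gave -0.02. Pon2, whose groups overlapped, lost its call without any 1 of 6 arrays, the exceptions being array 1 of each group (adjusted p up to 0.132 in limma), and once the stromal score was a covariate (adjusted p = 0.146).

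**Figure D4:**
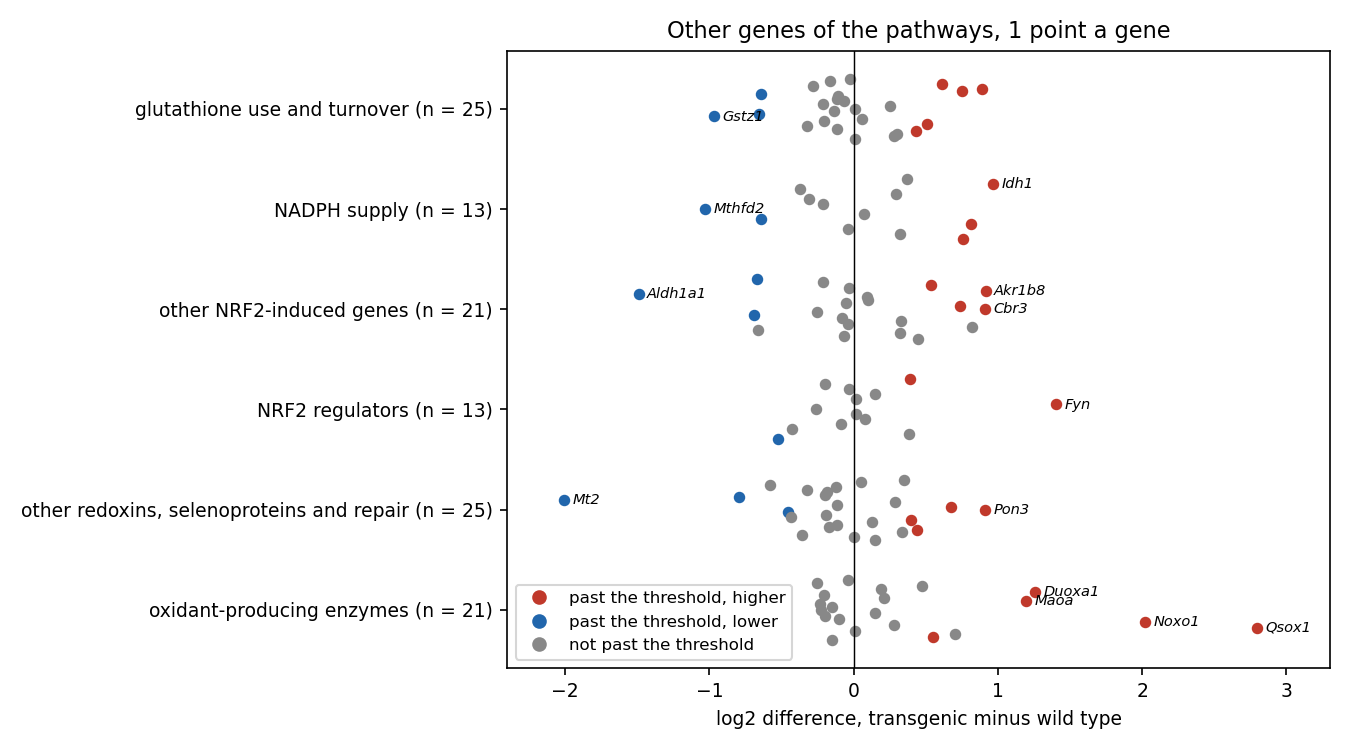
The log2 difference between transgenic and wild type samples (horizontal axis) for each gene of the 6 wider lists, 1 point a gene, coloured by its call in limma, with genes beyond 0.9 named. The oxidant-producing enzymes reach from -0.25 to 2.80 for Qsox1 with 5 called higher and 0 lower, while each of the other 5 lists holds called genes on both sides of 0.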

How the data were processed

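The labels describe total RNA purified with Trizol and an RNeasy column, biotin-labelled and hybridised to Affymetrix arrays, 1 array a sample. RMA, whose version is not given in the sources used here, produced the deposited log2 values, per the submitters' processing notes. RMA forces arrays to similar distributions, so a shift common to all transcripts would not show. The table held 22690 probe sets, and 64 controls were left out. Platform annotation gave 20380 probe sets 1 symbol, 691 several and 1555 none.

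Transgenic and wild type arrays were compared on the 22626 remaining probe sets by lmFit and eBayes (limma 3.58.1, R 4.3.3). Their p-values were adjusted together by the Benjamini-Hochberg method, and 0.05 was the threshold. The fit was tested on simulated data. Array measures were compared by two-sided exact permutation tests over 70 assignments of arrays, which cannot give a p below 0.0286.

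Every member is accounted for. Those past the threshold and the core enzymes are given array by array, and up to 4 called genes of each wider list are named by size. Other uncalled members described singly were chosen after their values were seen. The members and lists were chosen with earlier results of these data known. Alternatives were 2 normalizations, filters on dim probe sets, 2 variance models, 2 rules for probe sets, the replicate block, the stromal score, a threshold of 0.01 and leaving out each array. The number of arrays limits the precision.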

Additional observations from a re-analysis of the deposited data

Results flagged for a closer look

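In 5 of 94 groups of 4 arrays (5.32%, where chance gives about 5%), 1 array lay far from the other 3. Transgenic array 1 was at 12.26 for Mgst1, with the others between 11.71 and 11.76, and at 9.19 for Gstm2, with the others between 8.78 and 8.82. Wild type array 3 was at 8.56 for Gstm5, above 8.16 to 8.22 in the others and below every transgenic array. Transgenic array 3 was at 4.93 for Gpx7, with the others between 4.42 and 4.45, all below the median of every array. Transgenic array 2 was at 8.40 for Keap1, with the others between 8.14 and 8.17.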

How the results depend on the processing

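Of the 9 called members, Gstm5, Gsto1 and Srxn1 kept direction and call under every alternative that measured them (Srxn1 is among the dimmest 60%), and the other 6 lost the call under at least 1; 29 of the 38 uncalled members passed under none. No called member changed direction. With array weights 6 members and 1068 genes were lower; with the stromal score 0 members were lower in limma (8 at an unadjusted p under 0.05, and all 3 called without the score among them), with 379 genes higher and 291 lower; at a threshold of 0.01 the counts were 1 lower member, 408 higher and 259 lower genes. Leaving out 1 array gave 5 to 6 members higher and 1 to 7 lower, 494 to 821 genes higher and 359 to 693 lower, and stromal score differences from -0.65 to -0.31. With 3 arrays against 4 the permutation test cannot go below 0.0571. Whether the replicate numbers pair the arrays cannot be told from these values. The deviations of same-numbered arrays correlated at -0.30, 0.22, -0.18 and 0.34. Wild type arrays 2 and 4 correlated best with the transgenic array of their own number, and wild type arrays 1 and 3 with transgenic arrays 2 and 1. With the replicate number as a block 5 members rose and 2 fell, Sod2 and Prdx4 missing the threshold (adjusted p = 0.0763 and 0.0564), with 599 genes higher and 486 lower. Without probe sets whose suffix marks several transcripts, of the same gene or others, 40 members were measured, of which 4 rose and 3 fell. Changes near background can be missed.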

Other observations

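The annotation names 5 probe sets for both Prdx1 and the gene model Gm21399, and they represented no gene above. Prdx1 encodes a cytosolic peroxiredoxin. The 5 probe sets had log2 differences between 0.01 and 0.09, none past the threshold, with a lowest adjusted p of 0.729 in limma.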
